A study of Caenorhabditis elegans with 2 samples.

Results

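RBR-2-GFP binding was examined at 10 genes of actin assembly and axon guidance in Caenorhabditis elegans: wsp-1, wip-1, wve-1, abi-1, unc-34, unc-115, unc-76, ced-10, mig-10 and unc-73. The genes were listed by name, and all 10 matched a protein-coding gene among the 19973 on the nuclear chromosomes. They were chosen with earlier results of these data known, so comparisons with all genes are descriptive only. A region was assigned to a gene when its summit, the position of highest enrichment, lay inside the gene or within 2 kb upstream of the 5′ end of any of its transcripts. Chromatin came from whole L4 hermaphrodites of strain OP195, grown for 56 hours from starved L1 larvae. Their transgene makes RBR-2 carrying GFP and FLAG at its C terminus, and no label says whether untagged RBR-2 remained. There was 1 group of 2 biological replicates, with no untagged strain, other stage or treatment to set it against, so no difference between groups was tested. One label names an antibody to GFP and another gives rbr-2, and the labels do not settle which was used. Whole animals were used, so strong binding in few cells and weak binding in many cells cannot be told apart.

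RBR-2 is the worm homolog of the KDM5 enzymes, which remove methyl groups from lysine 4 of histone H3, a mark of active promoters. Most of the genes examined encode proteins that shape the actin cytoskeleton, and unc-76 encodes a FEZ-family protein of axon bundling and elongation. WASP and WAVE proteins activate the Arp2/3 complex, which nucleates branched actin filaments, and Rac GTPases act upstream of WAVE. In growing axons these proteins work at the leading edge of the growth cone and steer it in response to guidance cues. In the worm the same machinery also serves the migration of epithelial cells and the engulfment of dying cells.

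The optimal list held 3442 peaks that passed the authors' test of reproducibility (the irreproducible discovery rate), and it equals the 3442 strongest of 30000 regions called on both replicates pooled. Strength is the deposited signal of the peak caller, and rank 1 is the strongest region of a list. In all, 10 peaks of the optimal list fell to 6 of the genes: 3 at unc-73, 2 at unc-115, 2 at unc-76, and 1 each at wip-1, wve-1 and abi-1. No optimal peak lay in the windows of wsp-1, unc-34, ced-10 or mig-10. The share of all nuclear protein-coding genes with an optimal peak by the same rule was 17.4%, against 6 of the 10 genes here. Their windows were long, with a median of 9.32 kb against 4.03 kb over all genes. Among the 8019 genes whose window was at least as long as the shortest of the 10 (4.48 kb), the share was 24.2%. That cut does not match the genes for length, because only 8.81% of all genes had a window longer than the median of the 10.

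**Figure D1:**
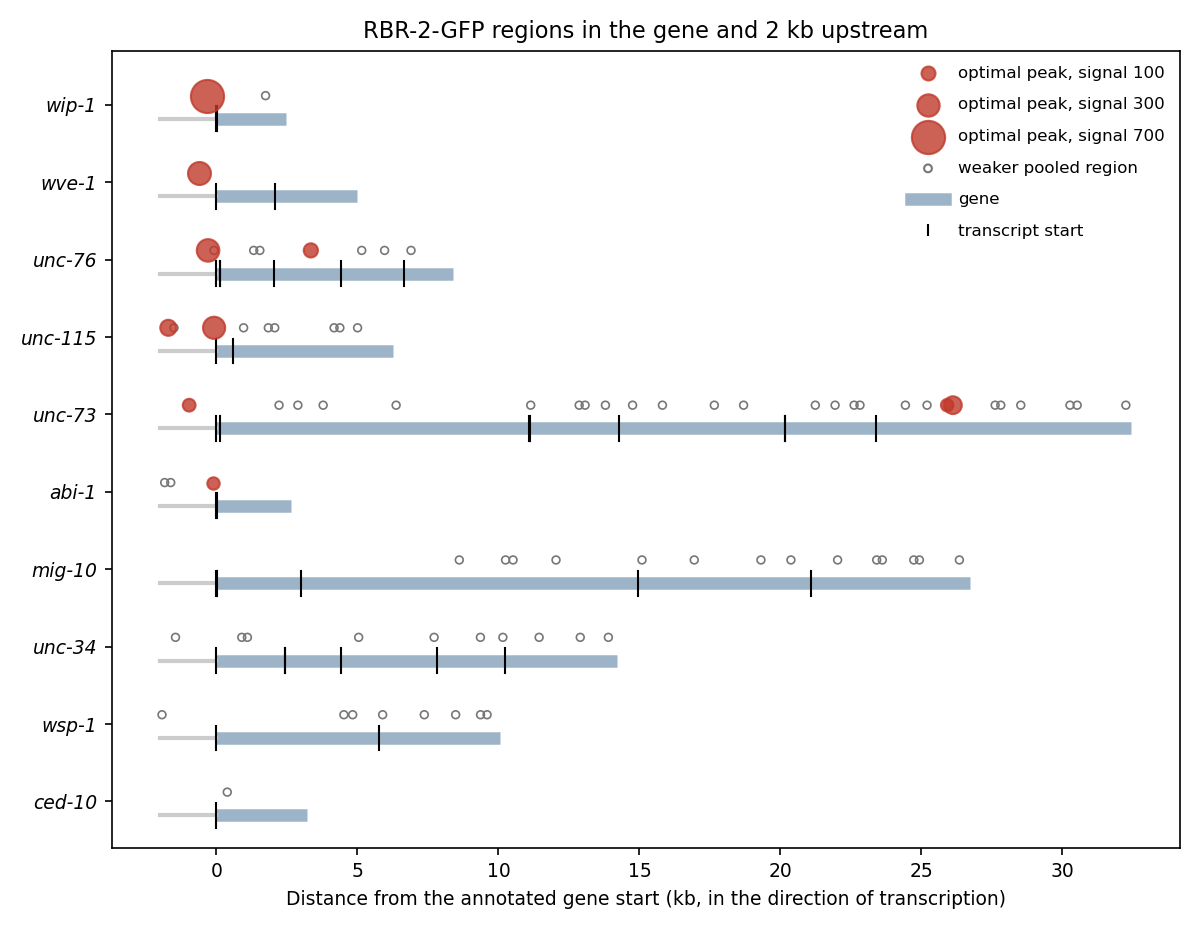
Positions of pooled regions in each gene and 2 kb upstream, as the distance of the summit from the annotated gene start in kb. Filled circles are optimal peaks, with an area that grows with signal, open circles are weaker pooled regions, blue bars are genes and ticks are transcript starts; the strongest peaks of wip-1, wve-1, unc-76 and unc-115 lie just upstream of the start, and wsp-1, unc-34, mig-10 and ced-10 have open circles only.

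The DNA under the strongest peak near a transcript start is shown for wip-1, abi-1, unc-115 and unc-76. At these genes a summit lay within 500 bp of an annotated transcript start. Sequences are from the RefSeq genome of assembly WBcel235 (ce11), on the strand of the named gene, 5′ to 3′, in a window of 300 bases around the summit that stops at the first annotated exon of a protein-coding gene. They cover chrIII:5018166-5018465 (plus strand) for wip-1, chrIII:5692741-5692905 (minus strand) for abi-1, chrX:10146657-10146891 (plus strand) for unc-115 and chrV:15071312-15071611 (plus strand) for unc-76. The summit is base 151 of each sequence except that of abi-1, where it is base 36. Capitals mark matches on either strand, overlapping ones included, to 6 motifs: GAGAGA (a GA repeat), TATAAA (the TATA box), CACGTG (the E-box), CCGCCC (a GC box), CTGCGTC (a motif of worm promoters) and TTTCAG (the worm splice acceptor).
wip-1: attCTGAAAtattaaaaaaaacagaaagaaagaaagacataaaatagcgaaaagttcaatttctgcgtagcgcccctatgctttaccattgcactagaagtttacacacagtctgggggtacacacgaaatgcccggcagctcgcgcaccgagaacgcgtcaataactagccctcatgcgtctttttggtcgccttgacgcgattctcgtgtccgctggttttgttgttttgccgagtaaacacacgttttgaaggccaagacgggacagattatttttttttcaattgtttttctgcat
abi-1: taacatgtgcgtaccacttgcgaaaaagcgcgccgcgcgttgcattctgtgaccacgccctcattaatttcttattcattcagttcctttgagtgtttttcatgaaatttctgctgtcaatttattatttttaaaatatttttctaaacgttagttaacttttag
unc-115: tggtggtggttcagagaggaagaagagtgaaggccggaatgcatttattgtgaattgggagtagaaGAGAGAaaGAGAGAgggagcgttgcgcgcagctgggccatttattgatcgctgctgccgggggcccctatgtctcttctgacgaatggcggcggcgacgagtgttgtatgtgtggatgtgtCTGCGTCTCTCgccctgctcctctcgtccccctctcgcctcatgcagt
unc-76: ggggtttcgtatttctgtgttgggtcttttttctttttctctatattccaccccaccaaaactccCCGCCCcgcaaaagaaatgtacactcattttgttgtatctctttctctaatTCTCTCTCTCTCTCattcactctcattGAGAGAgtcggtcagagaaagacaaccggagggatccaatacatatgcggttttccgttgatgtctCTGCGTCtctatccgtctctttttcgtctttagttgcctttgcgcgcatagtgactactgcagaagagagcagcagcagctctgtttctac

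The sequences differ in make-up. That of unc-115 has a G+C content of 56.6%, that of unc-76 45%, that of wip-1 43% and that of abi-1 35.2%. The unc-76 sequence holds a long run of alternating T and C just before its summit, read as GAGAGA on the other strand, and 1 match to CCGCCC. Both unc-76 and unc-115 hold CTGCGTC between the summit and the transcript start, and in unc-115 this match overlaps one to GAGAGA. The wip-1 sequence holds 1 match, to TTTCAG on the minus strand, and the abi-1 sequence, which is the whole interval between its transcript start and that of the divergent gene arle-14, holds none of the 6. The full window of 300 bases around the abi-1 summit, which runs on into exons not shown, holds 1 TATAAA.

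Of the WASP pair, wip-1 had an optimal peak and wsp-1 had none. The gene wip-1 encodes the worm WIP, a protein that binds and stabilises WASP, and wsp-1 encodes the worm N-WASP. The wip-1 peak (chrIII:5018135-5018485) had a signal of 336 in replicate 1 and 361 in replicate 2, at ranks 40 and 57, and its signal in the optimal list was 697, at rank 51. It was the strongest peak at any of the 10 genes and the 14th of the 1687 nuclear optimal peaks within 500 bp of a protein-coding transcript start. Its summit lay 323 bp upstream of transcript R144.4b.1, in intergenic DNA. The divergent gene larp-1 starts 666 bp away on the other side, so its 2 kb window also holds the peak. The peaks next to it in the order of signal among those near a start lay at ints-4 (702) and between drr-2 and set-16 (681).

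At wsp-1 (chrIV:8188904-8198951, minus strand) 8 pooled regions were listed, none in the optimal list. The strongest had a pooled signal of 25.8 at rank 13578, in a coding exon 3841 bp downstream of the shorter transcript's start. The strongest region in the window had a signal of 16.9 in replicate 1 and 26.2 in replicate 2, at ranks 9505 and 5650, and these were different sites: the replicate 1 region lay 1600 bp upstream of the longer transcript and the replicate 2 region in the coding exon. The nearest optimal peak outside the window was 5422 bp beyond it.

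Both of the WAVE complex genes among the 10 carried an optimal peak, of unlike strength. The gene wve-1 encodes the WAVE/SCAR protein and abi-1 the Abl-interactor subunit that ties it into its complex. At wve-1 (chrI:11924541-11929516, minus strand) the peak had a signal of 156 in replicate 1 and 162 in replicate 2, at ranks 251 and 298, and of 320 in the optimal list at rank 273. Its summit lay 617 bp upstream of transcript R06C1.3a.1 and 632 bp from the start of the divergent gene R06C1.4, close to the middle of the 1248 bp between them. The internal start of R06C1.3b.1 had no pooled region around it.

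The abi-1 peak was near the end of the optimal list. Its signal was 29.8 in replicate 1 and 41.6 in replicate 2, at ranks 3822 and 2905, and 72.7 in the optimal list at rank 2990. In replicate 1 it was not among the 3442 strongest regions. The summit lay 130 bp upstream of transcript B0336.6.2 and 36 bp from the start of arle-14, on the other strand, so the nearer gene was arle-14. Assigning each peak outside the listed gene to the nearest protein-coding start leaves abi-1 with none. So does the list of replicate 1 when cut to its 3442 strongest regions.

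Of the 3 genes for proteins that bind actin filaments or promote their growth at the leading edge, unc-115 had optimal peaks and unc-34 and mig-10 had none. The gene unc-34 encodes the worm Ena/VASP, which promotes filament elongation, unc-115 encodes an abLIM-type actin-binding protein, and mig-10 encodes the homolog of lamellipodin and RIAM, adaptors for Ena/VASP. At unc-115 (chrX:10146892-10153142) the stronger peak had a signal of 114 in replicate 1 and 183 in replicate 2, at ranks 491 and 237, and of 295 in the optimal list at rank 315. Its summit lay 85 bp upstream of transcript F09B9.2a.1, the shortest distance of the 10 peaks to a transcript start of their own listed gene. The second unc-115 peak had a signal of 60.5 in replicate 1 and 80.4 in replicate 2, at ranks 1495 and 1128, and of 142 in the optimal list at rank 1241.

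That second summit, 1708 bp upstream of unc-115, was inside a tRNA gene of 73 bp (F09B9.t1 in RefSeq, chrX:10145156-10145228) and inside the antisense noncoding RNA F09B9.7. Of the 3423 nuclear optimal summits, 138 (4.03%) were inside one of 612 annotated tRNA genes. The tRNA start was 28 bp from the summit and the unc-115 start 1708 bp, and whether the peak concerns unc-115 was not tested.

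At mig-10 (chrIII:8279101-8305837) the strongest region just missed the optimal list. It had a signal of 31.3 in replicate 1 and 35.6 in replicate 2, at ranks 3579 and 3568, and of 65.0 in the pooled list at rank 3451, whereas the weakest optimal peak has 65.2. It lay in an intron, 5606 bp downstream of the start of transcript F10E9.6a.2. The other 13 pooled regions at mig-10 had signals of at most 44.4, and none lay within 2 kb upstream of its first transcripts. The nearest optimal peak outside the window was 1716 bp beyond it, with a signal of 182.

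At unc-34 (chrV:982706-996914) all 10 pooled regions were weak. The strongest, 106 bp upstream of the start of transcript Y50D4C.1f.1 and inside a coding exon of longer transcripts, had a pooled signal of 35.7 at rank 7917. The strongest region in the window had a signal of 22.1 in replicate 1, at that site, and of 22.9 in replicate 2, at the 3′ end of the gene.

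Of the Rac pathway pair, unc-73 held peaks and ced-10 none. The gene ced-10 encodes a Rac GTPase used in engulfment and axon guidance, and unc-73 encodes the worm Trio, a guanine nucleotide exchange factor that activates Rac. The ced-10 window (chrIV:3506328-3509527 plus 2 kb upstream) held 1 pooled region, with a signal of 15.8 at rank 26971 of 30000. The strongest region there had a signal of 9.96 in replicate 1 and 10.7 in replicate 2, at ranks 22675 and 25384. This was the lowest level of the 10 genes in each list.

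The unc-73 gene (chrI:3999300-4031739, minus strand) is the longest of the 10, with 10 transcripts from 8 starts, and had 3 optimal peaks and 24 weaker pooled regions. The strongest peak had a signal of 102 in replicate 1 and 85.2 in replicate 2, at ranks 603 and 1021, and of 181 in the optimal list at rank 827. A neighbouring peak had 50.2 in replicate 1 and 43.8 in replicate 2, at ranks 1937 and 2701, and 74.1 in the optimal list at rank 2929. Both summits were in an unc-73 intron, 2714 and 2511 bp downstream of the start of transcript F55C7.7d.1, and both were inside F55C7.2, a protein-coding gene of 585 bp on the opposite strand that is nested in that intron. They lay 187 and 390 bp from the start of F55C7.2, and the peaks overlap each other.

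The third unc-73 peak lay 968 bp upstream of the longest transcript, F55C7.7a.1, with no other protein-coding start within 500 bp. It had a signal of 39.1 in replicate 1 and 35.5 in replicate 2, at ranks 2692 and 3580, and of 79.0 in the optimal list at rank 2708. In replicate 2 it fell outside the 3442 strongest regions.

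The gene unc-76 encodes a FEZ-family protein needed for axon bundling and elongation, known as an adaptor for kinesin transport. Its stronger peak (chrV:15071357-15071597) had a signal of 128 in replicate 1 and 179 in replicate 2, at ranks 378 and 249. In the optimal list its signal was 307, at rank 289. The summit lay 298 bp upstream of transcript C01G10.11f.1. The second peak, in an intron 1061 bp upstream of the start of C01G10.11d.1, had a signal of 39.5 in replicate 1 and 65.8 in replicate 2, at ranks 2662 and 1541, and of 105 in the optimal list at rank 1940. No other protein-coding gene had a start within 2 kb of either summit, so at unc-76 both peaks could be assigned to 1 gene.

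By their strongest pooled region the genes were ordered wip-1 (697), wve-1 (320), unc-76 (307), unc-115 (295), unc-73 (181), abi-1 (72.7), mig-10 (65.0), unc-34 (35.7), wsp-1 (25.8) and ced-10 (15.8). The order is not the same in both replicates. Of wve-1, unc-76 and unc-115, wve-1 was ahead of both others in replicate 1 and behind them in replicate 2. In replicate 1 mig-10 (31.3) was ahead of abi-1 (29.8), and in replicate 2 wsp-1 (26.2) was ahead of unc-34 (22.9). The other replicate kept the pooled order for each of these pairs. The median of the strongest pooled signal was 127 over the 10 genes, each of which had a pooled region. Over all nuclear protein-coding genes it was 18.4 with genes without a region set to 0, and 37.5 over the 11241 genes (56.3%) that had one. Over all genes with a window of at least 4.48 kb it was 27.8. The 10 windows together, 131 kb, held 7.61 optimal peaks per 100 kb, against 3.41 over the nuclear genome, which includes DNA between genes. They held 83 pooled regions, or 63.2 per 100 kb against 29.9 over the nuclear genome.

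**Figure D2:**
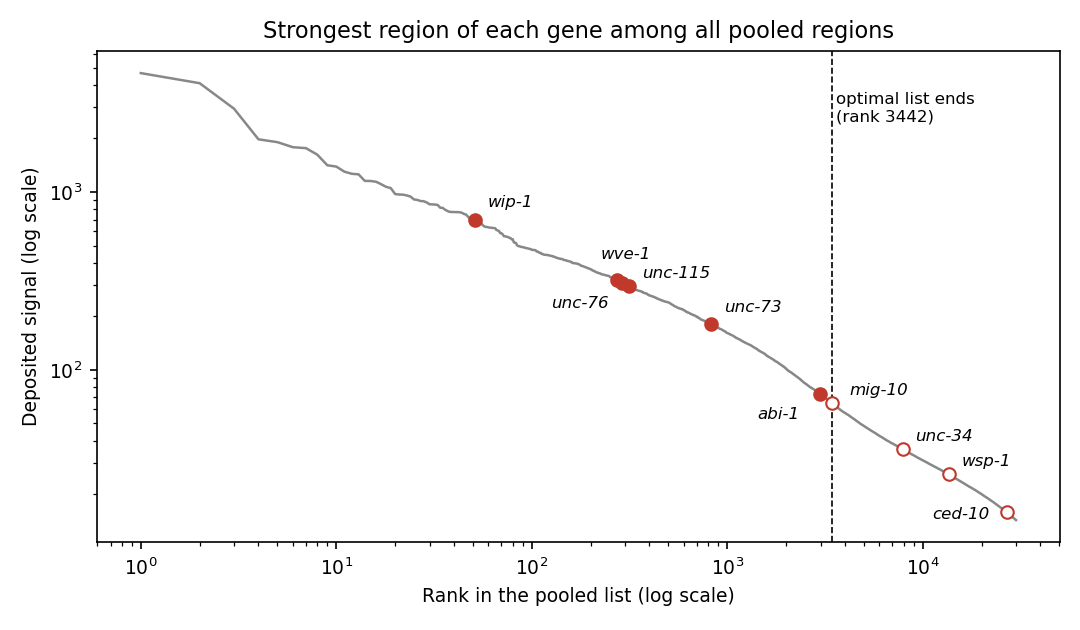
Deposited signal against rank for all 30000 pooled regions (both axes log scale), with the strongest region of each gene marked; filled points are in the optimal list and open points are not. The genes run from wip-1 at rank 51 to ced-10 at rank 26971, with mig-10 at rank 3451 just past the end of the optimal list.

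Of the 10 optimal peaks, 4 lay within 500 bp of a transcript start of their gene, those of wip-1, abi-1, unc-115 and unc-76. Over the nuclear optimal peaks, 1687 of 3423 (49.3%) lay within 500 bp of a start of any protein-coding gene. Under that wider rule the paired unc-73 intron peaks, near the start of F55C7.2, also count. By gene, 4 of the 10 had a peak near their own start, against 10.3% of all genes. More than 1 optimal peak was in the windows of 3 of the genes, against 2.62% of all genes. The windows of these genes, unc-73, unc-76 and unc-115, were 34.4, 10.4 and 8.25 kb, against a median of 4.03 kb over all genes. Shares of all genes given here were not matched for window length. The paired unc-73 intron peaks overlap each other, and the weaker unc-115 summit is inside a tRNA gene. By place, 7 summits were upstream of the gene and 3 in its introns, and none was in an exon of its own gene. The median signal of the 10 peaks was 161, against 114 over the 3423 nuclear optimal peaks, and 6 of the 10 were above that median of 114.

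The ranks of a peak in the 2 replicates differed by 17 at wip-1 and by up to 1121, at the intronic peak of unc-76. A region with a summit within 200 bp was found in both replicate lists for all 10 peaks, and 8 of the 10 were among the 3442 strongest of both, against 78.2% of nuclear optimal peaks. The summits of the replicates lay 0 to 83 bp from that of the optimal list. Signal was higher in replicate 2 than in replicate 1 at 7 of the 10 peaks, the exceptions being the 3 at unc-73. Over the 3397 nuclear peaks found in both replicates it was higher in replicate 2 at 67.5%. The lists were scored separately, so these signals are compared by rank in the plot of replicate ranks.

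**Figure D3:**
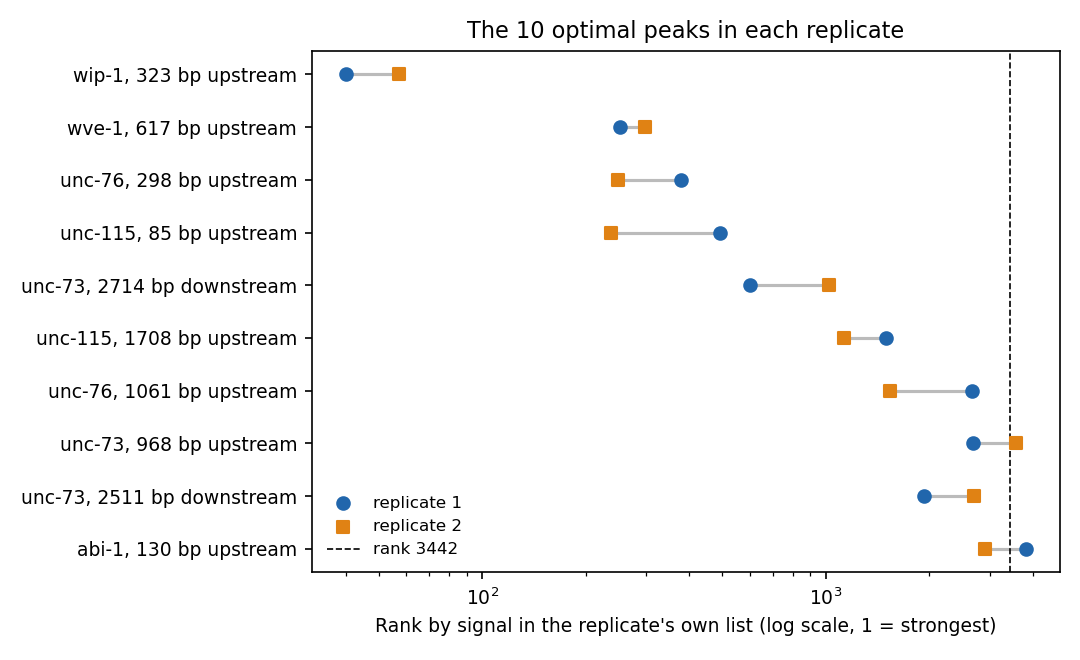
Rank of each of the 10 optimal peaks in the list of replicate 1 (circles) and of replicate 2 (squares), on a log scale, labelled by gene and distance to the closest transcript start; the dashed line is rank 3442. Only the abi-1 peak in replicate 1 (3822) and the unc-73 peak 968 bp upstream in replicate 2 (3580) lie beyond the line.

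The letters under the 10 peaks were compared with those under all nuclear optimal peaks, in 300 bases around each summit and on both strands. GAGAGA occurred in 6 of the 10, against 51.1% of all peaks, TTTCAG in 4 (27.8%), TATAAA in 3 (21.6%), CTGCGTC in 3 (20.8%) and CCGCCC in 3 (14.1%). CACGTG occurred in none, against 6.89% of all peaks. CTGCGTC was under the stronger peaks of unc-115 and unc-76 and under the upstream peak of unc-73. The windows of the paired unc-73 intron peaks share bases, and both hold the GA repeat, the GC box and the splice acceptor letters. The G+C content of the windows had a median of 44.4% (range 32.7 to 56.3%), against 42.7% over all peaks.

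A wider set of 102 actin and axon guidance genes, listed by role, showed where peaks were common and where they were rare. This set too was chosen with earlier results of these data known. In all, 35 of the 102 (34.3%) had an optimal peak in the gene or 2 kb upstream, against the 17.4% of all protein-coding genes. The median window in this set was 8.12 kb. Among the partners of WAVE and the Arp2/3 complex, 2 of 12 had a peak: gex-3, a WAVE complex subunit (signal 121, 91 bp upstream), and arx-7, an Arp2/3 subunit (71.2, 40 bp upstream). The share in this list, 16.7%, was close to that of all genes.

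Of actin and actin-binding proteins, 12 of 25 had a peak (48%), against 17.4% of all genes. A peak within 500 bp of a start was found at 7 of these 25, at 2 of the 12 WAVE partners and Arp2/3 subunits, at 2 of the 29 guidance ligands and receptors and at 7 of the 20 other axon outgrowth genes, against 10.3% of all genes. The strongest were at cap-2, a capping protein subunit (393, 240 bp upstream, shared with gmps-1), unc-60, the worm cofilin (227, 353 bp upstream, shared with F53E2.2), and act-4 (175, in an intron 425 bp upstream of a transcript start). Actin genes are copies of one another, and whether reads at the intronic act-4 peak map uniquely was not tested.

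Guidance ligands and receptors were at the other end, with 3 of 29 genes. The strongest peak was at unc-40, a netrin receptor (signal 141, 252 bp upstream). The others were at plx-1, a plexin (106, 1518 bp upstream), and mab-20, a semaphorin (95.4, 10 bp upstream). The median window of the ligands and receptors, 9.47 kb, was about that of the 10 genes, 9.32 kb. Of other axon outgrowth and growth cone genes, 11 of 20 had a peak, led by unc-16, a JIP3 kinesin adaptor (299, 87 bp upstream and inside a noncoding RNA gene), unc-70, β-spectrin (265, 1644 bp upstream and inside a noncoding RNA gene), and unc-14, a partner of the UNC-51 kinase (242, 101 bp upstream). This list had the longest windows, with a median of 12.9 kb. The median of the strongest pooled signal was 114 in this list, 59.9 for actin and actin-binding proteins, 40.3 for WAVE partners and Arp2/3 and 33.95 for ligands and receptors.

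**Figure D4:**
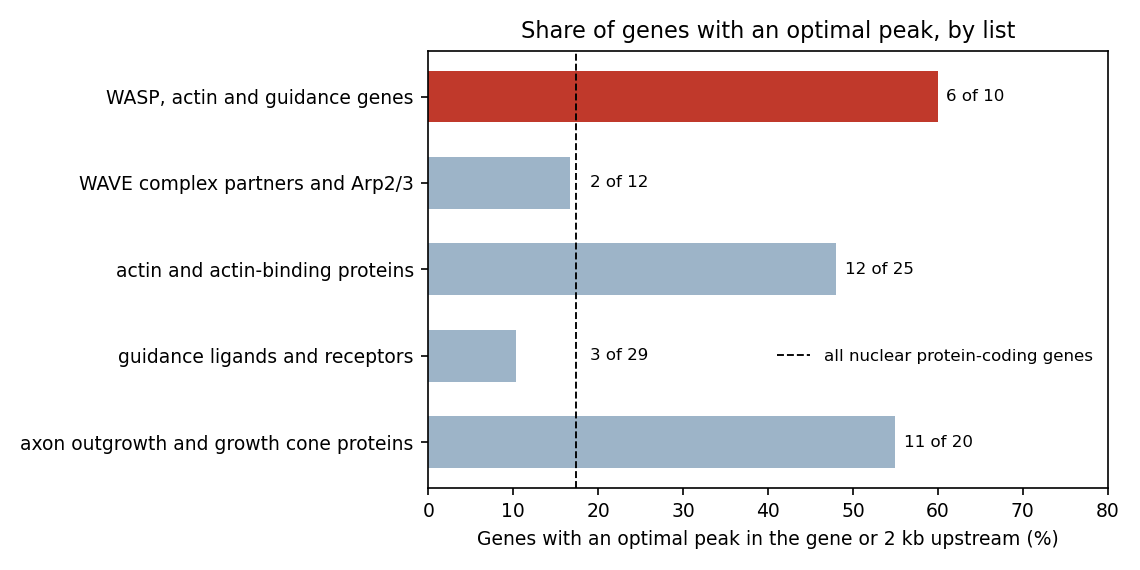
Percent of genes with an optimal peak in the gene or 2 kb upstream, for the 10 genes (top bar) and 4 wider lists by role, with counts; the dashed line is the 17.4% of all nuclear protein-coding genes. The bars run from 3 of 29 for guidance ligands and receptors to 6 of 10 for the genes described here.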

How the data were processed

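RBR-2-GFP ChIP-seq was analysed from the narrowPeak lists on ce11: one per replicate, one for pooled replicates, and the optimal list. Per the text the authors deposited, replicate and pooled lists hold peaks and background regions called against a control, and the optimal list derives from them; no aligner, peak caller or reproducibility threshold was named in the sources used here. Each region's signal is the value the authors deposited and was ranked within its own list. Their deposited −log10 q-value stood at 1 ceiling for every optimal peak and ranked nothing. Lists give no read counts, so depth is unknown and no interval was calculated.

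Genes and transcript 5′ ends came from Ensembl release 115 (WBcel235, the same assembly as ce11) and bases from RefSeq. Windows, overlaps and motif matches were computed in Python 3.11.15 with pandas 2.3.3 and Biopython 1.88, and the window rule was checked on planted summits. The replicates share 1 group, so values are described without a test, against all 19973 nuclear protein-coding genes. The members and lists were chosen with earlier results of these data known. Named were the 10 members, up to 3 per role list by signal, and genes with a start within 500 bp of a member's summit. Also named were those whose peak within 500 bp of a start ranked next to the strongest member peak. The genes larp-1, R06C1.4, unc-33, gmps-1, F53E2.2, F09B9.7 and the tRNA gene were added after values were seen, as was the share among long windows. In the lists, efn-1 matched no gene, and 1 role list counted in the total of 102 is not reported here. Replicates were left out in turn, and windows, starts, thresholds and overlap were varied. The ce10 lists were not used.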

Additional observations from a re-analysis of the deposited data

How the results depend on the processing

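The 6 genes with an optimal peak became 5 in the stronger 50% of the optimal list and with nearest-start assignment, abi-1 being the one lost. That assignment gave each peak outside the listed gene to the nearest protein-coding start. Peaks inside the listed gene stayed with it, including the unc-73 peaks inside F55C7.2. The count stayed 6 with 1 kb upstream, with gene starts only and with any overlap of the peak. The 10 peaks in the windows became 6 in the stronger 50% of the list. The 4 genes with a summit within 500 bp of a start became 2 within 250 bp and 6 within 1000 bp. Shares of all genes are given for the main settings only, so counts under other settings have no share beside them. The 8 peaks in the strongest regions of both replicates stayed 8 at 100 and 500 bp, and 10 matched any replicate region. With 1 replicate alone, cut to its 3442 strongest regions, the counts were 5 to 6 genes and 10 peaks in either case. Genes near a start numbered 3 to 4, and the wider genes 36 to 37. The 10 peaks were not the same set. Without replicate 1, unc-115 had 3 peaks rather than 2 and unc-73 had 2 rather than 3. Without replicate 2, abi-1 was lost and unc-76 had 3 peaks rather than 2. The wider genes numbered 25 in the stronger 50%, 26 with 1 kb upstream and 30 with nearest-start assignment. For single genes, 67 of the alternatives kept a peak present or absent and 3 did not, all at abi-1. The stronger 50%, 1 kb, gene-start and nearest-start settings can only take peaks away. They could not change the result at genes without a peak. No paired analysis was possible because there was 1 group. Signal values have no depth behind them, so the spread of a single value is unknown.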

Other observations

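Some weaker regions at these genes were ranked very differently by the replicates. In an unc-115 intron, replicate 2 had a region with a signal of 41.3 at rank 2943, among its 3442 strongest, 1259 bp downstream of the start of F09B9.2b.1, whereas the nearest replicate 1 region, 1078 bp downstream of that start, had 15.4 at rank 11154. In an unc-76 intron, replicate 1 had a region with a signal of 32.6 at rank 3393, 713 bp upstream of the start of C01G10.11c.1, and replicate 2 had one with 23.9 at rank 6642, 738 bp upstream. In the pooled list these sites had signals of 56.9 (rank 4039) and 55.03 (rank 4219), below the optimal list. The optimal peak nearest to the ced-10 window, 4332 bp beyond it with a signal of 141, is the strongest peak of unc-33, a CRMP-family axon outgrowth gene, which had 4 optimal peaks in its own window.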
